A study of Mus musculus with 401 samples.

Results

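Single oocytes were compared with the cumulus cells of the same follicle in 24 oocyte-cumulus complexes of mice aged 2 months, with 1 oocyte library and 1 cumulus library per complex. These 48 of the 401 libraries of the series were taken by their labels alone, as those of the second set of samples that carry an age of 2 months and are not marked as collected without hyperovulation. The series followed both cell types over age, diet and hyperovulation. All 48 libraries came from B6D2F1 (C57BL/6 x DBA/2) females on the AL (ad libitum) diet, under 5 mouse labels that gave 4, 4, 8, 4 and 4 complexes and do not say whether each is a single animal. Every female was hyperovulated, with equine chorionic gonadotropin (eCG) or with CARD HyperOva, and the labels do not say which agent each female received. Ovaries were taken 48 h later into medium with IBMX, a phosphodiesterase inhibitor that keeps meiosis arrested, and the oocytes kept were at the GV (germinal vesicle) stage of fully grown follicles. A cumulus library holds a pool of cells of a follicle rather than a single cell. RNA per cell and the number of cells in the pool therefore cannot be told apart, and every value below is a share of the counts of its library.

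The oocyte and its cumulus cells depend on each other. The oocyte secretes growth factors of the TGF-beta and FGF families that direct cumulus cells, and cumulus cells return Kit ligand, metabolites and the signal that holds meiosis, across gap junctions and through projections that cross the zona pellucida. The fully grown oocyte is close to the end of transcription and lives on stored RNA, while cumulus cells remain transcriptionally active and answer to follicle-stimulating hormone.

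RamDA-seq reads total RNA along the whole transcript, with or without a poly(A) tail. Lysates of the 2 cell types were diluted and reverse transcribed by different steps, so cell type and protocol cannot be told apart in any contrast below. Library totals ranged from 1719013 to 2433019 counts (median 2118731) in oocytes and from 510029 to 1147286 counts (median 854935) in cumulus cells. The libraries matched their labels. The 16 oocyte markers summed to 21933 to 32547 CPM (counts-per-million after TMM scaling, median 28274) in oocytes and to 0 to 12.9 CPM (median 7.11) in cumulus cells, where 9 of the 16, including Zp2, Bmp15, Figla, Nobox and Ddx4, had no count in any library. The 16 cumulus markers summed to 4994 to 10042 CPM (median 8863) in cumulus cells and to 278 to 422 CPM (median 334) in oocytes, most of it from Esr2 (median 175 CPM), Nr5a2 (66.5 CPM) and Gata4 (48.8 CPM). What share of the low oocyte values of cumulus genes came from attached cumulus cells was not tested. Luteal or mural granulosa markers (5 genes) summed to at most 233.5 CPM in a cumulus library (median 19.5 CPM), and theca and stroma markers (8 genes) to at most 45.5 CPM (median 12.5 CPM). Correlations of log2 CPM at an equal depth of 500000 counts, given as a description, had a median of 0.942 between oocytes, 0.915 between cumulus libraries and 0.519 between the 2 cell types.

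The 2 cell types differed in most of what was measured. Of 26662 genes counted in 5 or more of the 48 libraries, 8647 (32.4%) were higher in oocytes and 9741 (36.5%) in cumulus cells by more than 2-fold, 69.0% in all (edgeR's quasi-likelihood test against a 2-fold difference, paired by complex, Benjamini-Hochberg adjusted p under 5%). This call is written below as "beyond 2-fold", log2 fold changes are oocyte over cumulus cells ± SE, and each group has n = 24. The SE is approximate. For genes with few counts in a cell type it can fall below counting error alone and so overstate precision. Examples are Gdf9, with 68 counts over the cumulus libraries, and Npr2, with 42 counts over the oocyte libraries. Folds are ratios of the counts summed over a cell type, scaled by TMM, and so differ somewhat from the fitted log2 values. DESeq2 called 5984 and 6343 genes beyond 2-fold. Without the 2-fold margin 10976 genes (41.2%) were higher in oocytes and 11946 (44.8%) in cumulus cells, 86.0% in all. Among the 16450 protein-coding genes the shares beyond 2-fold were 36.8% and 31.2%, 68.0% in all. The lowest oocyte lay above the highest cumulus library for 5086 genes (19.1%), and the reverse held for 3523 (13.2%). With every library thinned to 500000 counts and no TMM scaling, the numbers were 3082 and 2822 genes. The extreme differences were more often on the oocyte side, since 212 genes were at least 1000-fold higher in oocytes and 45 in cumulus cells. At least 10-fold differences were more often on the cumulus side, with 3753 and 5441 genes. Genes at 0 counts in the other cell type (2947 and 3156 beyond 2-fold) entered with a bound of 3 counts over its 24 libraries. That bound is 0.13 CPM in cumulus cells and 0.0658 CPM in the deeper oocyte libraries, so such cumulus genes reach 10-fold at a lower level. Given backgrounds of this size, the counts below are read against 32.4% and 36.5%, and the size of each difference carries more than the call.

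Genes of the known signalling exchange were found in both cell types, with ligands and receptors on each side. Of 40 genes listed for this exchange, 38 were tested, since the EGF-like ligands Areg and Ereg had counts in too few libraries. Among the 38, 13 were higher in oocytes and 21 in cumulus cells beyond 2-fold, with 12 and 17 free of overlap. The median log2 fold change was -2.36 over the list (-2.35 with members at 0 counts in 1 cell type set to their bound, 3 counts over its 24 libraries) and -0.13 over all genes tested.

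The growth factors of the oocyte were detected in every oocyte and were rare or absent in cumulus cells. Gdf9 (ENSMUSG00000018238, GRCm38 chromosome 11, 53431023 to 53437904), which drives cumulus growth and expansion, ranged over 3384 to 6779 CPM (median 5175) in oocytes and 0 to 10.5 CPM (median 2.696) in cumulus cells. The groups did not overlap, and the log2 fold change was 10.71 ± 0.16 (1728-fold). Its X-linked partner Bmp15 (ENSMUSG00000023279, chromosome X, 6314107 to 6320721) ranged over 3600.2 to 6352 CPM (median 4939) in oocytes and had no count in any cumulus library, so it was at least 38257-fold higher. Fgf8, which acts with BMP15 on glycolysis in cumulus cells, ranged over 61.9 to 127 CPM (median 91.4) and again had no count in cumulus cells (at least 707-fold). Bmp6, a further BMP ligand, ranged over 250.1 to 322 CPM (median 282) in oocytes and 15.4 to 88.2 CPM (median 55.2) in cumulus cells. It was thus shared at lower contrast, 5.42-fold.

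The receptors for these ligands were not all on the cumulus side. Bmpr2, the type II receptor used by GDF9 and BMP15, ranged over 292 to 516 CPM (median 374) in oocytes and 1868 to 2959 CPM (median 2163) in cumulus cells. It was 5.97-fold higher in cumulus cells (-2.58 ± 0.05), without overlap. Tgfbr1, the type I receptor of GDF9, was 4.705-fold higher in cumulus cells (-2.23 ± 0.11). The BMP type I receptors did not differ beyond 2-fold. Bmpr1b ranged over 241 to 369 CPM (median 310.3) in oocytes and 203 to 435 CPM (median 282) in cumulus cells, a log2 fold change of 0.09 ± 0.06 with an edgeR adjusted p of 0.14 against no difference, and its direction changed with the scaling (-0.25 by library totals alone). Bmpr1a ranged over 115 to 174 CPM (median 148) and 117 to 259 CPM (median 159.6), a log2 fold change of -0.14 ± 0.06. Acvr1b, a type I receptor for activins, was 6.399-fold higher in oocytes (2.69 ± 0.12). Of the FGF receptors, Fgfr1 had 23.7 to 50.2 CPM (median 36.5) in oocytes and 13.9 to 48.4 CPM (median 23.8) in cumulus cells, overlapping and not beyond 2-fold (0.60 ± 0.10). Fgfr2 had 85.7 to 144 CPM (median 115) and 6.87 to 79.2 CPM (median 51.3), beyond 2-fold (1.39 ± 0.17, edgeR adjusted p 0.0055), a call lost under DESeq2 (adjusted p 0.115), by library totals or upper quartiles alone, at equal depth and in the complexes named B1.

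Kit ligand and its receptor were on opposite sides. Kit, the receptor tyrosine kinase of the oocyte, ranged over 466 to 680.1 CPM (median 583) in oocytes and 0 to 23.5 CPM (median 8.49) in cumulus cells (58.5-fold). Its ligand Kitl ran the other way, with 2.66 to 16.8 CPM (median 8.76) in oocytes and 22.3 to 138 CPM (median 56.2) in cumulus cells (7.19-fold higher in cumulus cells). Neither gene overlapped between the cell types.

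Genes of the cyclic GMP pathway that holds meiosis in arrest were split between the cell types. Npr2, the guanylyl cyclase receptor that makes cyclic GMP in cumulus cells, ranged over 342 to 786 CPM (median 564) in cumulus cells and 0 to 2.93 CPM (median 1.01) in oocytes (-9.12 ± 0.17, 607-fold). Its ligand Nppc, made mainly by mural granulosa cells, was low, at 0.771 to 22.9 CPM (median 9.399) in cumulus cells and 0 to 1.98 CPM (median 0.5304) in oocytes. These ranges overlapped, although Nppc was beyond 2-fold (14.5-fold). In the oocyte, Pde3a, the phosphodiesterase that cyclic GMP inhibits, ranged over 433 to 639 CPM (median 522) against 0 to 3.34 CPM (median 0) in cumulus cells (754-fold). Gpr3, the receptor that keeps cyclic AMP high in the oocyte, ranged over 96.2 to 167 CPM (median 125) against 0 to 5.36 CPM (median 0.949) (96.3-fold). The related Gpr12 had no count in cumulus cells and 0 to 6.49 CPM (median 3.304) in oocytes, where some libraries were also at 0.

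Contact genes separated just as sharply. The connexins of the junction were reciprocal, with Gja4 (connexin 37) at 1137 to 1488 CPM (median 1268) in oocytes and 0 to 5.84 CPM (median 1.53) in cumulus cells, a difference of 601-fold. Gja1 (connexin 43) had 5311 to 7679.7 CPM (median 6629) in cumulus cells and 0.564 to 45.4 CPM (median 8.06) in oocytes, 744-fold the other way. E-cadherin (Cdh1) ranged over 489.6 to 912 CPM (median 569.7) in oocytes and had no count in any cumulus library (at least 4499-fold). N-cadherin (Cdh2) was found in both, at 28.96 to 57.2 CPM (median 43.98) in oocytes and 58.6 to 279 CPM (median 221) in cumulus cells, and the highest oocyte lay just below the lowest cumulus library. The Notch ligand Jag1 ranged over 1868 to 2372 CPM (median 2109.8) in oocytes and 0 to 11.9 CPM (median 4.38) in cumulus cells (414-fold). Its receptor Notch2 was 5.54-fold higher in cumulus cells and the Notch target Hey2 11.1-fold higher, both without overlap.

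Hormone and growth factor genes of the follicle were on the cumulus side, for 12 of 13 listed members that were tested. Inha, the inhibin alpha subunit, ranged over 1560.3 to 3851 CPM (median 2682) in cumulus cells and 1.14 to 30.7 CPM (median 8.87) in oocytes (267-fold). The beta subunits Inhba (395-fold) and Inhbb (511-fold) and the activin binding protein follistatin (Fst, 622-fold) differed by as much, as did the anti-Mullerian hormone receptor Amhr2 (318-fold). Fshr, the FSH receptor, ranged over 50.9 to 173 CPM (median 125) in cumulus cells and 0 to 5.05 CPM (median 0.247) in oocytes (-7.15 ± 0.21, 151-fold). Igf1 was 190.3-fold higher in cumulus cells, its receptor Igf1r 11.5-fold and the insulin receptor Insr 8.17-fold. The LH receptor Lhcgr was near its floor, with 84 counts in 12 of the 24 cumulus libraries and a highest value of 34.2 CPM, and its call was lost under DESeq2. Btc, an EGF-like ligand, was near its floor too, with 66 counts in 21 of the 24 cumulus libraries (0 to 7.77 CPM, median 2.94) and 2 counts in all oocyte libraries (-4.47 ± 0.39). The exception was Egfr, the receptor of the EGF-like peptides, which had 166 to 365 CPM (median 232) in oocytes and 54.7 to 367 CPM (median 286) in cumulus cells, a log2 fold change of 0.04 ± 0.15 that changed sign with the scaling (-0.31 by library totals alone).

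**Figure D1:**
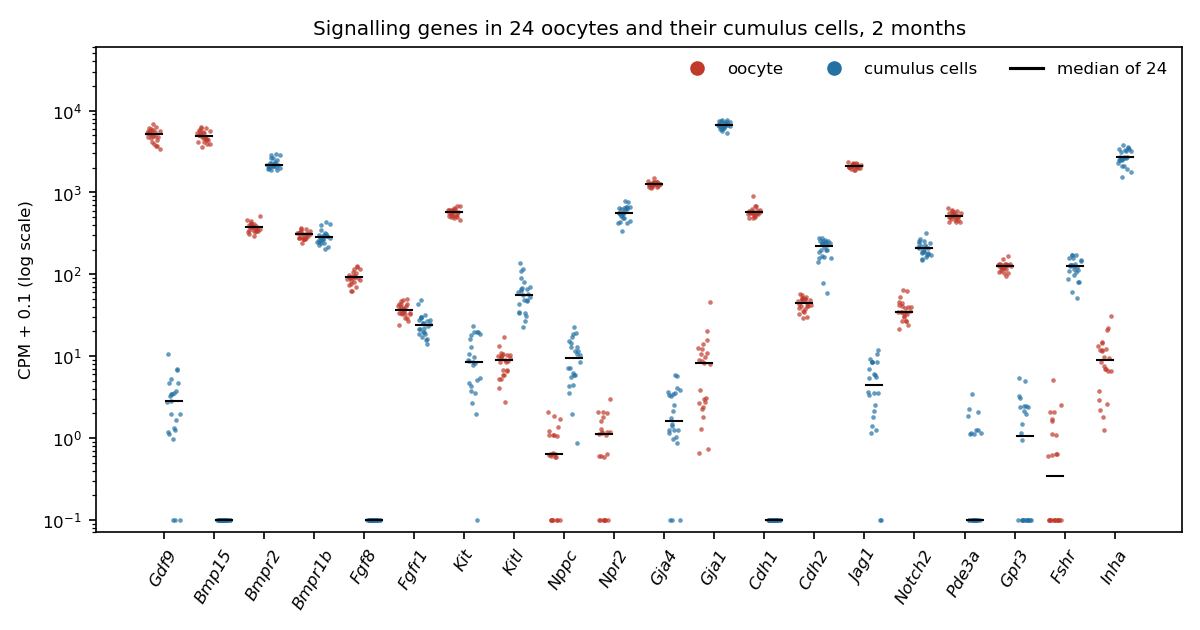
Level of 20 signalling genes in each of the 24 oocyte (red) and 24 cumulus (blue) libraries, as CPM + 0.1 on a log axis, with a black line at the median of each group. Bmp15, Fgf8 and Cdh1 lie at 0 in every cumulus library, Gja4 and Gja1 are reversed in order, and Bmpr1b and Fgfr1 overlap between the cell types.

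The zona pellucida genes had the largest median difference of the 25 lists by edgeR, and under DESeq2 the maternal effect genes had a larger one (10.67 against 10.56). Of 11 genes of the zona and oocyte surface, 10 were higher in oocytes beyond 2-fold and 9 did not overlap, with a median log2 fold change of 11.79 (11.47 with the 7 genes at 0 counts in 1 cell type set to their bound). Zp3, a structural protein of the zona matrix, ranged over 2261 to 3578 CPM (median 2973) in oocytes, with 2 counts in all cumulus libraries together (34414-fold, 95% counting interval 9527 to 284170). Zp2 ranged over 2193 to 4362 CPM (median 3544) and Oosp1, a secreted oocyte protein, over 723 to 1243 CPM (median 968), with no cumulus count for either. Tmem190 was the single member higher in cumulus cells (at least 5.27-fold), from a highest cumulus value of 2.81 CPM.

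Since the zona genes are known targets of the factor FIGLA, which binds the letters CANNTG, the promoter of Zp3 is printed beside that of Fshr, a gene with the opposite pattern. Both are the 250 bases before the annotated start in RefSeq GRCm38.p6, 5′ to 3′ on the strand of the gene, with each CANNTG match in capitals. The Zp3 window is chr5:135979855-135980104 on the plus strand and the Fshr window is chr17:89200676-89200925 on the minus strand.
Zp3: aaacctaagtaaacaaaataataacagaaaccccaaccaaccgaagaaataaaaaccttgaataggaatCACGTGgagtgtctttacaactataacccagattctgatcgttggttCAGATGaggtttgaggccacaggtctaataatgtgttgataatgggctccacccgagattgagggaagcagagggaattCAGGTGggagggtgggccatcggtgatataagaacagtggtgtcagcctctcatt
Fshr: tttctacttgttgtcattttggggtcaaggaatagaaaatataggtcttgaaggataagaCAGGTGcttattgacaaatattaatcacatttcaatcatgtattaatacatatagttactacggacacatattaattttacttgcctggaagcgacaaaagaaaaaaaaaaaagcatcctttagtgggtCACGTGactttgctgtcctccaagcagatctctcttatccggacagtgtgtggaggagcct
The Zp3 window held 3 matches, whose first bases are at -181, -134 and -55 from the start, and the Fshr window held 2, at -190 and -61. In windows from 250 bases before to 50 after the start, searched on both strands, CANNTG was in 8 of 9 promoters of zona and surface genes (8 of 11 genes had a RefSeq promoter, 88.9%) and in 72.3% of all 32851 promoters. It was in 68.2% of the promoters of oocyte transcription factors, 61.1% of those of cumulus transcription factors and 73.3% of those of steroid synthesis genes. The letters AAGGTCA, bound by NR5A1 and NR5A2, were in 4.72% of all promoters, in 4 of 22 promoters of oocyte transcription factors and in 0 of 15 of the steroid synthesis genes.

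Oocyte transcription factors followed the zona genes, with 16 of 17 higher in oocytes beyond 2-fold. Nobox, a homeobox factor of early folliculogenesis, ranged over 456 to 658 CPM (median 536) in oocytes with no cumulus count (at least 4209-fold). Obox1 and Obox2, homeobox genes of a multicopy family, had no cumulus count either, and their counts held fractions of shared reads in every oocyte. Zfp57, which protects imprints, ranged over 1444 to 2189 CPM (median 1686) in oocytes and reached 1.75 CPM in cumulus cells. The exception was Taf4b, a TFIID subunit needed for oogenesis, with 45.2 to 123 CPM (median 59.2) in oocytes and 126 to 494 CPM (median 238) in cumulus cells, 4.11-fold higher in cumulus cells without overlap.

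Maternal effect genes, whose products act in the early embryo, were higher in oocytes beyond 2-fold for 23 of 24. Zbed3, a member of the subcortical maternal complex, had the highest mean RPKM of the protein-coding genes that separated the cell types on the oocyte side, 3102 ± 329.9 RPKM, and ranged over 6627 to 9624 CPM (median 7485) in oocytes and 9.29 to 35.3 CPM (median 19.9) in cumulus cells. Padi6, which the cytoplasmic lattices need, ranged over 2404 to 3935 CPM (median 3308) against 2 counts in all cumulus libraries, and Nlrp14 over 3387 to 6079 CPM (median 4559) against none (at least 35138-fold). Uchl1, a ubiquitin hydrolase, was found in both at 1753 to 2891 CPM (median 2335) and 11.8 to 62.8 CPM (median 32.96). Genes for the storage, translation and decay of maternal mRNA gave 19 of 24 higher in oocytes and 2 in cumulus cells. Among them Eif4e1b, the oocyte form of the cap-binding protein, ranged over 860.1 to 1179 CPM (median 1021) against a highest cumulus value of 0.946 CPM, and Btg4, an adaptor for deadenylation, over 709 to 1222 CPM (median 899.5) against 1.84 CPM. On the other side were Zfp36l2, an mRNA decay factor (7.92-fold), and Ddx6, a helicase of RNA granules (5.39-fold).

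Cell cycle genes of meiosis were higher in oocytes for 26 of 36 and in cumulus cells for 1, at a median log2 fold change of 1.92 (1.9 with bounds). Mos, the kinase that holds metaphase II, ranged over 586 to 941 CPM (median 653) with no cumulus count, although these oocytes were at the GV stage. Wee2, the oocyte kinase that keeps CDK1 inactive, ranged over 479 to 735 CPM (median 620) against at most 2.76 CPM. Bub1b, of the spindle checkpoint, was present in both, with 2194 to 3009 CPM (median 2488) and 109 to 196 CPM (median 148) (16.6-fold). Cdc25c, a phosphatase that activates CDK1, was the member higher in cumulus cells, at 20.8 to 53.2 CPM (median 31.6) against 8.796 to 30.4 CPM (median 14.4), a call at the threshold (edgeR adjusted p 0.049) that 12 of 20 alternatives lost.

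Cohesin genes were divided. Of 21 genes of cohesin and its protectors, 10 were higher in oocytes and 4 in cumulus cells. Cdca5 (sororin), which protects cohesin from release, ranged over 462 to 620.2 CPM (median 536) in oocytes and 11.9 to 47.2 CPM (median 27.3) in cumulus cells (18.6-fold), and Esco2, an acetyltransferase for cohesin, was 8.396-fold higher in oocytes. The cohesin regulator Pds5a (8.14-fold) and the subunit Stag1 (3.58-fold) were higher in cumulus cells without overlap, and Pds5b (2.46-fold) with overlap. Rad21, the kleisin of mitotic cohesin, was not beyond 2-fold (-0.43 ± 0.05). Of 17 tested genes of recombination and synapsis, a process of the fetal ovary, 11 were higher in oocytes and 2 in cumulus cells. Syce2, of the synaptonemal complex, still had 206 to 300.3 CPM (median 257) in oocytes, and Sycp2 26.3 to 74.5 CPM (median 47.5) with no cumulus count. The genes higher in cumulus cells were Trip13, an ATPase that remodels HORMA proteins (2.43-fold), and Mlh3, a mismatch repair gene of crossovers (7.299-fold).

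Small RNA genes were higher in oocytes for 12 of 21 and in cumulus cells for 3, which were Ago1, Ago2 and Piwil4. Dicer1, which cuts small RNA precursors, ranged over 763 to 1089.8 CPM (median 939) in oocytes and 83.3 to 163 CPM (median 123) in cumulus cells (7.63-fold), and its partner Tarbp2 was 5.25-fold higher in oocytes. Ago2, the slicing Argonaute, ran the other way, at 42.4 to 86.6 CPM (median 65.9) and 227 to 426 CPM (median 322) (4.87-fold higher in cumulus cells), as did Ago1 (16.8-fold), and Piwil4 was near its floor with at most 4.2 CPM, a call that 6 of 20 alternatives lost, DESeq2 among them. Tdrd1 and Mael, of the piRNA pathway, were 3999-fold and at least 1324-fold higher in oocytes. DNA methylation genes gave 8 of 15 higher in oocytes and 2 in cumulus cells, or 3 and 2 of 8 without genes of mostly fractional counts. The maintenance methyltransferase Dnmt1 ranged over 3709.8 to 6261 CPM (median 5101) in oocytes and 127 to 279 CPM (median 201) in cumulus cells (24.95-fold), and its cofactor Uhrf1 was 6.94-fold higher. The dioxygenases Tet1 (10.2-fold) and Tet2 (9.11-fold), which oxidise methylcytosine, were higher in cumulus cells, both without overlap.

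On the cumulus side, the transcription factor list gave 17 of 22 genes higher in cumulus cells and 3 in oocytes. The immediate early genes led it. Fos ranged over 503 to 3585 CPM (median 2032) in cumulus cells and 0.623 to 28.3 CPM (median 5.999) in oocytes (296-fold), Jun was 487-fold higher and Egr1 23.8-fold higher. Genes of this class are induced within minutes by growth factors and other stimuli. Esr2, the estrogen receptor of granulosa cells, was only 2.3-fold higher in cumulus cells (-1.18 ± 0.07), a call that 4 alternatives lost. Smad3, the mediator of TGF-beta and activin signals, was 7.49-fold higher in oocytes, at 499.8 to 888 CPM (median 579) against 44.3 to 109 CPM (median 73). Hey1 and Runx2 were also higher in oocytes, at medians of 9.89 and 8.55 CPM.

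Steroid synthesis genes were higher in cumulus cells for 14 of 17 and in oocytes for 1. Hsd17b1, which makes estradiol from estrone, ranged over 270.5 to 914 CPM (median 602) in cumulus cells and 0 to 13.2 CPM (median 3.26) in oocytes (139-fold). Akr1c14 (174-fold), a hydroxysteroid dehydrogenase, and Scarb1 (8.11-fold), the lipoprotein receptor, did not overlap either. Hsd3b6 was the member higher in oocytes, from a median of 0.772 CPM and with 1 count in cumulus cells, a call lost under DESeq2. In the list of matrix and expansion genes, 10 of 16 were higher in cumulus cells and 3 in oocytes. Vcan, the proteoglycan versican, ranged over 485 to 1038 CPM (median 752) in cumulus cells (1582-fold) and the protease Adamts1 that cuts it over 97.4 to 315 CPM (median 178), against 1 count in all oocyte libraries. The basement membrane genes Lamc1 (4.07-fold), Col4a1 (4.06-fold) and Col4a2 (3.94-fold) were higher in oocytes, Lamc1 at a median of 308 CPM and the collagens below 20 CPM in every oocyte.

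Most metabolic lists were on the cumulus side. Fully grown oocytes are known to take products of glycolysis, cholesterol and amino acids from their cumulus cells. Glycolysis genes were higher in cumulus cells for 17 of 20 and in oocytes for 1, with a median log2 fold change of -3.95. The lactate dehydrogenases were exchanged. Ldha, the form that favours lactate, ranged over 581 to 2716 CPM (median 2198) in cumulus cells and 1.14 to 49.8 CPM (median 12.1) in oocytes (149-fold), while Ldhb, the form that favours pyruvate, ranged over 2083 to 3111 CPM (median 2549) in oocytes and 46.7 to 301 CPM (median 78.2) in cumulus cells (28.4-fold). Neither pair of ranges overlapped. Reads of Ldha, Pkm and Tpi1 were shared with other genes in most libraries, so their levels are uncertain. The glycolytic enzymes Aldoa (6.02-fold), Tpi1 (8.19-fold) and Pkm (3.598-fold) were higher in cumulus cells, Pkm with overlap.

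Cholesterol genes were higher in cumulus cells for 15 of 21 and in oocytes for 1. Hmgcs1, an early synthase of the pathway, was not beyond 2-fold (log2 fold change, oocyte over cumulus cells, of 0.82 ± 0.09, SE). Fdft1, squalene synthase, was higher in oocytes, at 448 to 592 CPM (median 503) against 53.2 to 167 CPM (median 121) (4.45-fold). Amino acid transporters were higher in cumulus cells for 11 of 18 and in oocytes for 2. The neutral amino acid carriers Slc38a2 and Slc38a5 ranged over 689 to 1048 CPM (median 851) and 183 to 548 CPM (median 312) in cumulus cells and were 2188-fold and 346-fold above the oocytes. The exceptions were Slc6a9, the glycine transporter, with 533 to 1174 CPM (median 638) in oocytes (12.4-fold higher), and Slc7a11, the cystine carrier, with 546 to 917 CPM (median 723) (43.7-fold).

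The genes that burn pyruvate were near parity. Of 21 genes of pyruvate use and the citric acid cycle, 3 were higher in oocytes, 4 in cumulus cells and 14 in neither, with a median log2 fold change of 0.37. The pyruvate dehydrogenase subunit Pdha1 (3.92-fold), citrate synthase Cs (2.49-fold) and fumarase Fh1 (2.603-fold) were the 3 in oocytes, and under library totals alone Cs and Fh1 were not beyond 2-fold. Nuclear genes of the respiratory chain gave 16 higher in oocytes and 10 in cumulus cells of 83, a lead that turned to 11 and 17 under library totals alone. Sdhd, a succinate dehydrogenase subunit, was 3.74-fold higher in oocytes and Atp5g3, of ATP synthase, 9.06-fold higher in cumulus cells. The 13 protein-coding genes of the mitochondrial genome were all higher in cumulus cells beyond 2-fold and without overlap. Their median log2 fold change was -3.71, and mt-Co1, of complex IV, ranged over 4402 to 10600 CPM (median 5502) in cumulus cells and 256 to 843 CPM (median 487) in oocytes (11.3-fold). The median member of this list had 70.8% of its nonzero counts not whole, so levels are uncertain. Most of the 13 were left out where genes of mostly fractional counts were dropped, and over all alternatives 2 to 13 were called.

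Genes of ribosomes, proteasomes, histones, noncoding RNA and the cytoskeleton made up the remaining lists. Cytoplasmic ribosomal protein genes were higher in cumulus cells for 42 of 81, at a median log2 fold change of -1.12 (-1.13 with bounds), and their number rose to 61 under library totals alone. Over all alternatives it ran from 3 to 61, and dropping genes of mostly fractional counts left out most of the list. The 2 higher in oocytes were the germ cell paralogs Rpl39l (at least 310.2-fold), at 22.5 to 62.6 CPM (median 40.9), and Rpl10l (at least 19.6-fold), neither with a cumulus count. Proteasome genes gave 10 and 6 of 39 and core histones 9 and 25 of 67. For most histone and ribosomal genes the counts held fractions of shared reads. Of 21 noncoding RNAs, 18 were higher in cumulus cells and none in oocytes. Malat1, a nuclear RNA, ranged over 1967 to 4911 CPM (median 3402) in cumulus cells and 0 to 30.2 CPM (median 3.51) in oocytes (755-fold), whereas the signal recognition particle RNAs Rn7s1 and Rn7s2 overlapped and were not beyond 2-fold (-0.25 ± 0.08 each). Tubulin genes were split by paralog, while both actin genes, Actb and Actg1 (log2 fold change -2.62), were on the cumulus side. The median member of this list had 55.6% of its nonzero counts not whole, so levels of paralogs are uncertain. Actb (12.8-fold) and Tubb5 (5.13-fold) were higher in cumulus cells, while Tubb4b (5.096-fold), Tubb2a (26.8-fold) and the actin linker Rdx (14.01-fold, at 2202 to 3399.9 CPM (median 2600.2)) were higher in oocytes.

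**Figure D2:**
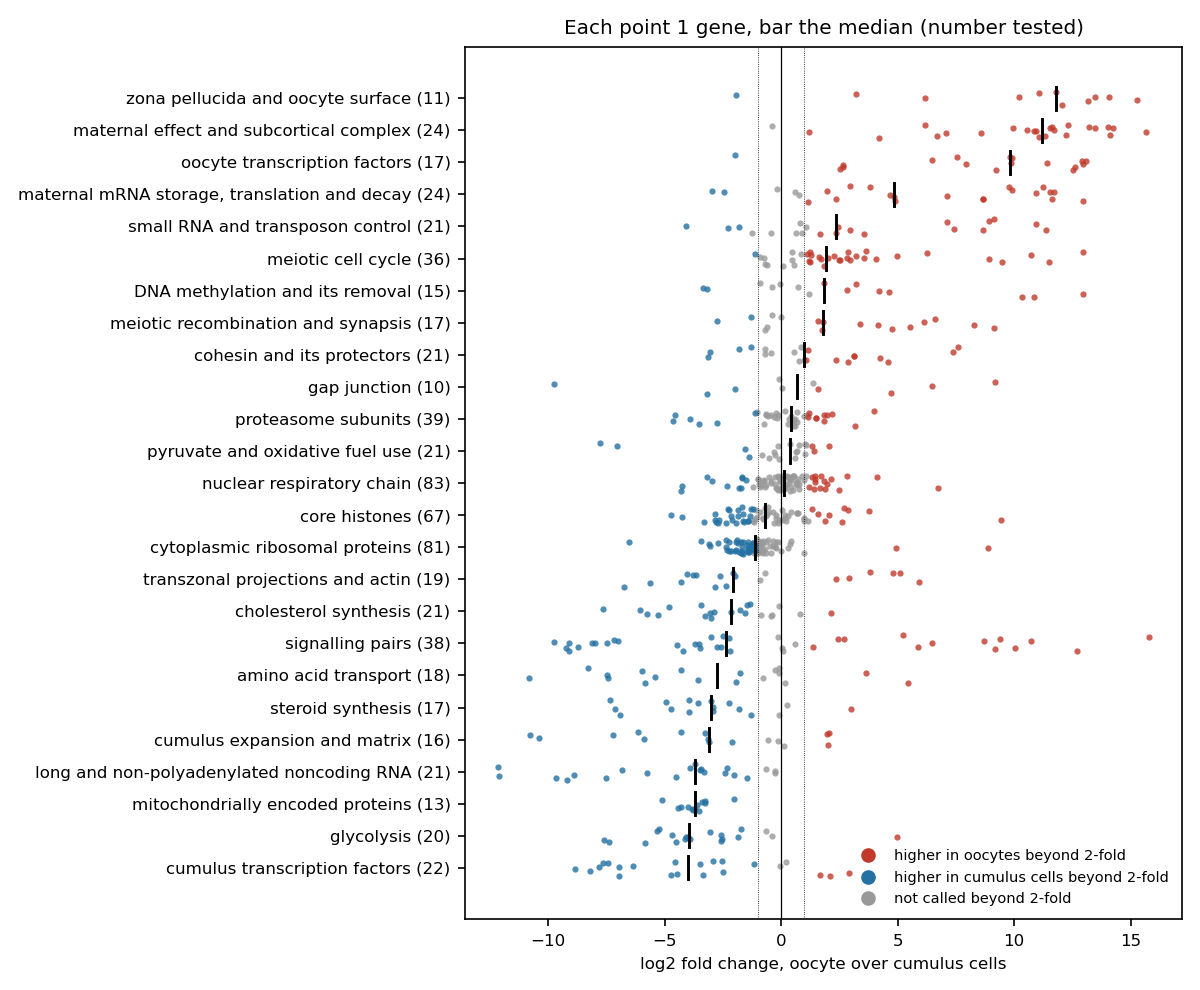
Log2 fold change (oocyte over cumulus cells) of every tested member of 25 gene lists, 1 point per gene, with a bar at the median and dotted lines at 2-fold. Zona genes lie farthest to the right (median 11.79), cumulus transcription factors farthest to the left (median -3.99), and respiratory chain genes are centred near 0 (median 0.14).

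Per transcript length, the protein-coding genes with the highest mean levels among those that separated all 48 libraries beyond 2-fold formed compact sets. In oocytes, mitochondrial genes left out, they were Zbed3 (3102 ± 329.9 RPKM), Gdf9 (2219 ± 383 RPKM), Zp3 (1997 ± 242 RPKM) and then Elobl, Ldhb, Bmp15, Ubb, Spin1, Uchl1 and Padi6, down to 1171 ± 137 RPKM. In cumulus cells they were Inha (2094 ± 471 RPKM), Actb (1109 ± 218 RPKM), Fos (990 ± 419 RPKM) and then Eef1a1, Inhbb, Gja1, Ldha, Hsp90ab1, Scd2 and Eef2, down to 557 ± 53.3 RPKM (means ± SD, n = 24). The counts of Elobl, Eef1a1 and Ldha held fractions of shared reads in most libraries.

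Cumulus libraries were concentrated in fewer genes yet held more kinds of RNA at equal depth. At the deposited depth, 17621 to 19185 genes (median 18470) had a count in an oocyte and 16055 to 18494 (median 17496) in cumulus cells, with the oocyte higher in 24 of 24 complexes. With every library thinned to 500000 counts the order turned, to 14321 to 14982 genes (median 14712) in oocytes and 15553 to 16479 (median 16118) in cumulus cells, with the cumulus library higher in 24 of 24. The mean difference at equal depth was -1409 ± 308 genes (SD over complexes, two-sided permutation test with 100000 sign flips, p = 1e-05, the smallest it can give). An exact test over the means of the 5 mouse labels can go no lower than p = 0.0625, and gave that value. Among protein-coding genes alone the difference was small, with 11395 to 11738 genes (median 11548) in oocytes and 11429 to 11872 (median 11636) in cumulus cells. There the cumulus library was higher in 15 of 24 complexes, with a mean difference of -102.7 ± 168 genes (p = 0.007 by the permutation test and p = 0.125 by the exact test over mouse labels).

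The 10 most counted genes took 3.97% to 4.82% of the counts in an oocyte (median 4.39%) and 13.5% to 20.4% in cumulus cells (median 15.3%). Mitochondrially encoded genes made up 0.348% to 0.847% of the counts in oocytes (median 0.50%) and 6.03% to 15.05% in cumulus cells (median 7.78%). Cytoplasmic ribosomal protein genes made up 0.304% to 0.551% (median 0.495%) and 1.041% to 1.67% (median 1.35%). All 3 shares were higher in the cumulus library of 24 of 24 complexes, with the same p = 1e-05 and p = 0.0625 by permutation and exact tests.

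**Figure D3:**
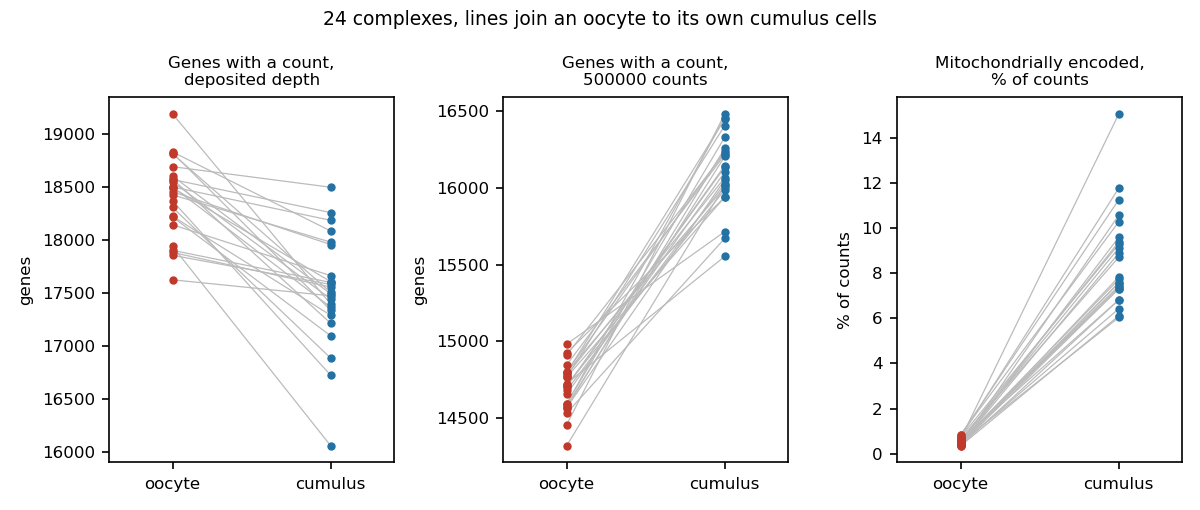
Genes with a count at the deposited depth (left) and at 500000 counts (middle), and percent of counts from mitochondrially encoded genes (right), in each of 48 libraries, with grey lines joining an oocyte to its own cumulus cells. The order of the cell types in genes detected turns between the first and second panel, from medians of 18470 and 17496 to medians of 14712 and 16118.

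Cumulus libraries varied more than oocytes. The SD of log2(CPM + 1) over 24 libraries had a median of 0.216 over the 7208 genes with a mean of at least 20 CPM in oocytes and 0.366 over 6839 such genes in cumulus cells. At 500000 counts per library the medians were 0.318 and 0.409, so the order held at equal depth. At the deposited depth, where oocyte libraries held more counts, 3973 of the 4481 genes that reached 20 CPM in both had the larger SD in cumulus cells. An SD above 1 was found for 11 genes in oocytes and 91 in cumulus cells.

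In cumulus cells the most variable genes included hormone genes of the follicle. Amh (ENSMUSG00000035262, chromosome 10, 80805243 to 80807648), the anti-Mullerian hormone, ranged over 5.94 to 731 CPM (median 27.2) and Inhba (ENSMUSG00000041324, chromosome 13, 16011851 to 16031621) over 20.8 to 3249 CPM (median 1869.6). In single libraries they ran in opposite directions. The lowest Inhba value (20.8 CPM) was in the library with the highest Amh value (731 CPM), and that library also had the lowest Inhbb (39.3 CPM), Fshr (50.9 CPM) and Nppc (0.771 CPM), the highest Wt1 (196 CPM) and Slc38a3 (207 CPM), and 1960 CPM of Inha. The next 3 libraries by Inhba, at 114, 164 and 198 CPM, had 323, 361 and 61.0 CPM of Amh and 1480, 626 and 610 CPM of Inhbb. The other 20 libraries had at least 731 CPM of Inhba and at least 2710 CPM of Inhbb. Those 4 libraries came from 3 mouse labels (2mo34, 2mo35 and 2mo36). In the same order of Inhba, their theca and stroma markers summed to 45.5, 23, 14.9 and 30.1 CPM (median of all 24 libraries 12.5 CPM) and their mitochondrially encoded genes made up 11.2%, 10.3%, 15.05% and 7.58% of the counts (median 7.78%). Their part in the contrast was not tested. Library B2C11, the first of the 4, also had the lowest mean correlation with the other cumulus libraries (0.902).

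**Figure D4:**
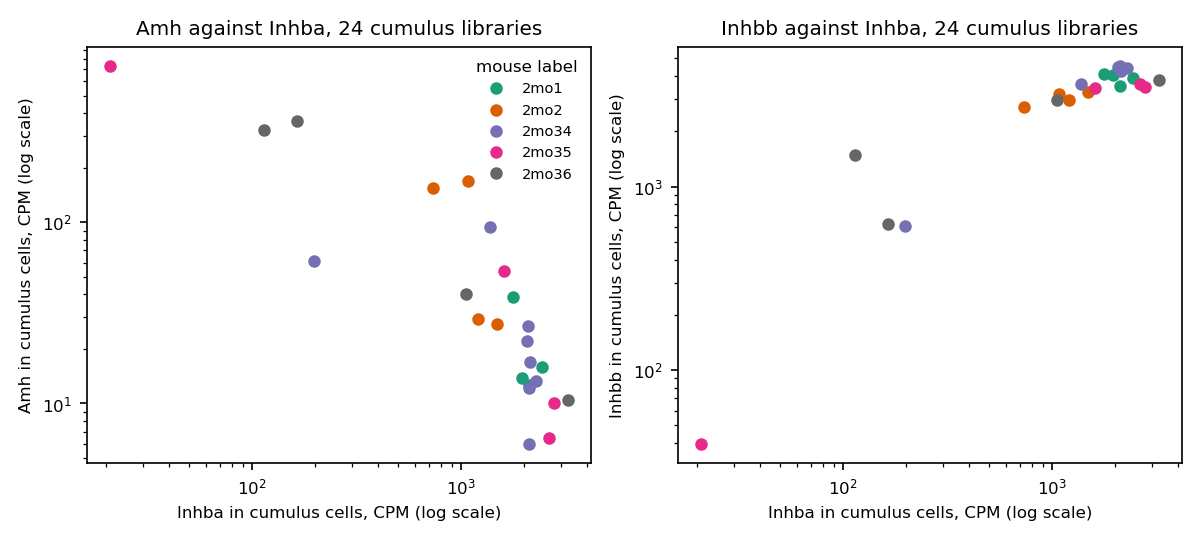
Amh (left) and Inhbb (right) against Inhba in the 24 cumulus libraries, in CPM on log axes, coloured by mouse label. The library with the lowest Inhba (20.8 CPM) has the highest Amh (731 CPM) and the lowest Inhbb (39.3 CPM), and 20 libraries lie at 731 CPM of Inhba or above.

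The oocyte genes with the widest spread were of another kind. Gli3, a transcription factor of hedgehog signalling, ranged from 1.53 to 429 CPM (median 184) and its paralog Gli2 from 1.02 to 46.3 CPM (median 20.1). Slc39a8, a zinc carrier, ranged from 0.571 to 228 CPM (median 7.64), with 4 of the 24 oocytes above 100 CPM. Ccnd2, cyclin D2, ranged from 1.06 to 156 CPM (median 28.3) with medians of 2.14 to 43.0 CPM by mouse label. Grem1, a BMP antagonist of cumulus cells, ranged from 1.71 to 68.3 CPM (median 20) among oocytes. For Gm49371, a lincRNA with the largest SD (0 to 146 CPM, median 57.1), the counts held fractions of shared reads in every library that had any.

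**Figure D5:**
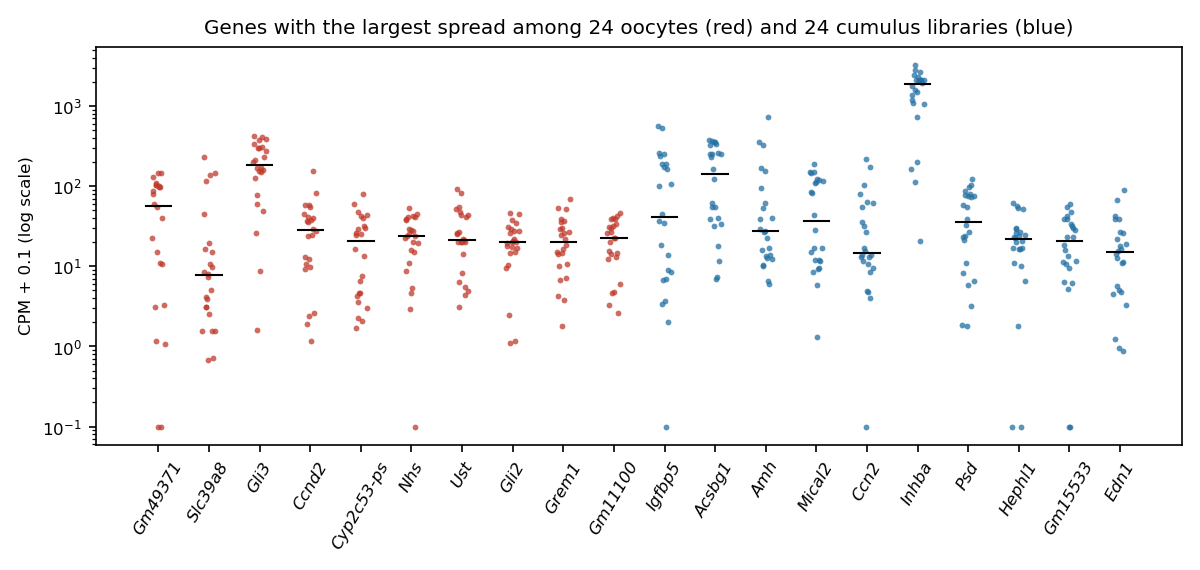
Levels of the 10 genes with the largest SD of log2(CPM + 1) in oocytes (red) and in cumulus cells (blue), 24 libraries each, as CPM + 0.1 on a log axis with a line at the median. Slc39a8 has a few oocytes above 100 CPM over a median of 7.64 CPM, and Inhba has 4 cumulus libraries below 200 CPM under a median of 1869.6 CPM.

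The difference between the cell types was also tested in complexes that the comparison did not use. The first set of samples held 15 complexes of young mice (2 mouse labels) with both libraries, hyperovulated and of the same strain and diet. There 32.4% of 25199 genes were higher in oocytes and 33.2% in cumulus cells beyond 2-fold (65.6% in all), and 41.1% and 41.9% (82.9% in all) without the margin. Over the 24655 genes tested in both sets, 7541 were higher in oocytes in both, which is 90.4% of the 8339 so called here and 92.5% of the 8150 so called there. For cumulus cells 7701 were shared, 86.5% of 8901 and 94.9% of 8116. No gene beyond 2-fold in one set was beyond 2-fold in the opposite direction in the other. Sizes were reproduced less well than calls. Named genes with a log2 fold change of -7.01 (Amh) or lower here all had smaller differences in the first set. Examples were Gja1 (-9.75 here, -6.06 there), Npr2 (-9.12, -5.78), Slc38a2 (-10.81, -7.3) and Inha (-8.13, -5.61). Oocyte-side sizes were mixed, smaller there for Pde3a (9.39, 8.13) but not for Gdf9 (10.71, 11.16). For genes without a cumulus count here, such as Zp2 (15.27, 11.45), the fitted value is not a measured size. The cause was not tested.

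Complexes of mice of the same age without hyperovulation (32 complexes under 8 mouse labels) differed from these in the contrast between the cell types for few genes. The oocyte-to-cumulus fold change differed for 972 of 30006 genes (3.24%, edgeR interaction test, adjusted p under 5%). After hyperovulation the signed log2 fold change was greater, toward oocytes, for 432 (1.44%) and less, toward cumulus cells, for 540 (1.8%). Less therefore does not mean a smaller difference between the cell types. That test takes complexes as replicates, although hyperovulation was given to mice. With counts summed per mouse label, which takes the label as the unit, 82 genes differed. A difference beyond 2-fold was found by edgeR for 4 genes, Adgrb3, Frmd5, Diras2 and 4930550L24Rik. DESeq2 found 1 gene beyond 2-fold, and edgeR with counts summed per mouse label found 0, with 2259 genes at an unadjusted p under 0.05 for any difference. Levels in this comparison are CPM of library totals, without TMM scaling, and so differ from those above. Cumulus medians after and without hyperovulation were near the floor for Adgrb3 (0 and 1.15 CPM), Diras2 (1.5 and 0 CPM) and 4930550L24Rik (1.12 and 0 CPM). Frmd5, a FERM domain protein, was the most abundant of the 4 in cumulus cells, with oocyte medians of 14.4 and 16.9 CPM. Its cumulus levels were 28.8 to 149 CPM (median 86.7) after hyperovulation and 5.37 to 73.1 CPM (median 19.3) without. These ranges overlapped, and the log2 difference of fold changes was -2.02 ± 0.19 (SE). Of the 38 signalling genes, 2 differed, Fgfr2 and Hey2. Both had higher medians in cumulus cells after hyperovulation, 56.7 against 17 CPM for Fgfr2 and 148 against 77.3 CPM for Hey2, and neither was called with counts summed per mouse label.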

How the data were processed

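RamDA-seq libraries of total RNA were made from single oocytes and pools of cumulus cells. Per the methods, cumulus samples were diluted to bring their RNA amount to that of oocytes. They also had a differently composed reverse transcription mix and another dilution of the spike-in RNA. Per the methods and the labels, the authors ran Fastq-mcf for trimming, HISAT2 2.0.5 for mapping (GRCm38) and featureCounts 1.5.1 for counting over GENCODE vM15 annotation. The authors deposited expected counts, in which reads mapped to several genes are shared, so 35.26% of the nonzero values in these 48 libraries were not whole. They were rounded before tests, as the design set out for values that are not whole. The authors also deposited RPKM values calculated from counts, used here only to compare levels between genes.

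The rounded counts of genes seen in 5 or more libraries were tested by the quasi-likelihood F test of edgeR 4.0.16 in R 4.3.3, with TMM scaling and with complex and cell type as terms, with glmTreat for calls beyond 2-fold and DESeq2 1.42.0 as an alternative. The labels name the complex of each library, which gives the pairing. Deviations of an oocyte and of its own cumulus cells from their cell type means were nearly uncorrelated (median r 0.0177, over 0.1 in 3 of 24). Against cumulus cells of another complex under the same mouse label the median r was 0.0265. Only 1 of 24 oocytes correlated best with its own cumulus cells, so the pairing rests on the labels alone. Complexes under 1 mouse label are not independent animals, so p-values over complexes measure the spread between complexes, and B1 and B2 start the complex names without saying what they mark. On simulated counts of 26269 genes, with the pairing and library sizes of this comparison, 200 genes were changed. There 80 of 100 genes changed 1.5-fold and 100 of 100 changed 4-fold were recovered, with 20 false calls. All other genes had a shared profile in both cell types and a common dispersion. Error rates where most genes differ, as they do here, were therefore not simulated. Reads carry no molecular identifiers, so intervals and floors cover counting error only.

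The libraries, gene lists and tests were chosen with earlier results of these data known. Named are every tested signalling gene, up to 4 members per list by mean RPKM in the leading cell type and up to 3 called the other way, and the 10 highest genes per cell type by mean RPKM that did not overlap. The most variable genes were named after their values were seen, as were genes of the hyperovulation test. Symbols come from GENCODE vM21. Of 42349 gene identifiers, 42230 matched. Results for some listed genes are not reported here.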

Additional observations from a re-analysis of the deposited data

Results flagged for a closer look

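The fold change between oocytes and cumulus cells differed between hyperovulated mice (24 complexes) and mice without hyperovulation (32 complexes) for 972 of 30006 genes by edgeR's interaction test, with 3962 genes at an unadjusted p under 0.05. By DESeq2 1304 genes differed, and 82 with counts summed per mouse label. Each mouse label had 1 treatment, with 5 labels hyperovulated and 8 not. Complexes under 1 label are therefore not independent replicates of the treatment. Of these tests, only the one with counts summed per mouse label takes the label as its unit.

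Among the signalling genes, Fgfr2 was flagged by the same test, with a log2 difference of fold changes of -0.98 ± 0.25 (SE, edgeR adjusted p 0.014, and 0.14 with counts summed per mouse label). Its cumulus levels, in CPM of library totals without TMM scaling, were 8.20 to 88.1 CPM (median 56.7) after hyperovulation and 4.26 to 98.2 CPM (median 17) without. The oocyte medians were 99.4 and 99.5 CPM. Hey2 was flagged with a log2 difference of -0.82 ± 0.21 (edgeR adjusted p 0.016, and 0.3 with counts summed per mouse label). Its cumulus levels were 74.1 to 205 CPM (median 148) and 4.74 to 207 CPM (median 77.3), with oocyte medians of 10.8 and 8.47 CPM. The ranges of both genes overlapped.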

How the results depend on the processing

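The comparison was repeated under 20 alternatives. Of 176 named genes, 153 kept their direction and call under every alternative in which they were tested, although filters, above all the one on genes of mostly fractional counts, left some named genes untested. No gene called beyond 2-fold was called beyond 2-fold in the opposite direction under any. With edgeR's filterByExpr, which leaves 15903 genes, 7170 genes were higher in oocytes and 7714 in cumulus cells, and 5392 and 5975 beyond 2-fold. DESeq2 called 5984 and 6343 beyond 2-fold and retained 67.0% of those calls, and the cause was not tested. Leaving out 1 mouse label at a time gave 10559 to 10934 genes higher in oocytes, 10552 to 11341 in cumulus cells, and 8364 to 8673 and 8568 to 9206 beyond 2-fold. Without the replicate block that pairs libraries by complex, 11281 and 12291 genes were called, 9006 and 10011 beyond 2-fold, and the interaction with hyperovulation gave 1216. In the first set 10586 and 10841 genes were called without that pairing block. The block changed the calls of Cdc25c and Wapl among the named genes.

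At 500000 counts per library, an alternative chosen after seeing the data, 3082 genes did not overlap and were higher in oocytes and 2822 in cumulus cells. That run also left out TMM scaling. Library totals without TMM at full depth gave 4392 and 4135 genes, so depth and scaling cannot be told apart in the thinned run. The difference in genes detected was 884.54 at the deposited depth and -1408.6 at equal depth. Over 5 mouse labels the composition differences had the same sizes (-1408.6 genes, -8.0528 percentage points of mitochondrially encoded counts, -0.8712 of ribosomal protein counts and -11.262 of the 10 most counted genes), and p could not fall under 0.0625 by the exact test. With counts summed per mouse label the interaction with hyperovulation gave 82 genes.

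Directions that changed belonged to genes not called beyond 2-fold. Bmpr1b (0.09) was -0.015 under DESeq2, -0.014 under RLE size factors, -0.25 by totals, -0.11 by upper quartile, -0.19 at equal depth and -0.0031 without genes of mostly fractional counts. Egfr (0.04) was -0.057, -0.067, -0.31, -0.16, -0.27 and -0.055 under these, -0.052 without the replicate block, -0.20 in the B1 complexes and -0.029 to 0.238 with 1 mouse label left out. Panx1 (-0.09) was 0.0072 over all genes with a count, 0.01 summed per mouse and -0.073 to 0.063 with 1 mouse label left out, and Bmpr1a (-0.14) was -0.119 to 0.022. Rn7s1 and Rn7s2 (-0.25) were 0.21 in the B2 complexes. H3f3b (0.15) was -0.19 by totals, -0.045 by upper quartile and -0.041 at equal depth. Other scalings moved the median of all genes by 0.01 (TMM without mitochondrially encoded genes), -0.04 (gene length offset), -0.10 (RLE), -0.18 (upper quartile) and -0.32 (totals). The share of beyond 2-fold calls that were higher in oocytes ran over all alternatives from 41.6% to 52.0%, against 47.0%. The median of the gap junction list was -0.22 under DESeq2 against 0.69, that of the respiratory chain list -0.21 by totals against 0.14, and that of the DNA methylation list -0.3 without genes of mostly fractional counts, which leaves 8 of its 15 genes, against 1.84.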

Other observations

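Small noncoding RNAs without poly(A) tails were on the cumulus side. Of 280 snoRNA genes tested, 242 were higher in cumulus cells and 4 in oocytes beyond 2-fold, and for snRNA genes the numbers were 135 and 6 of 157. scaRNA genes gave 15 and 0 of 17. Genes annotated as sense intronic gave 154 and 16 of 185, so transcripts lying in introns were on the same side. The lincRNA genes ran the other way, with 763 higher in oocytes and 410 in cumulus cells of 1512, as did unprocessed pseudogenes with 162 and 53 of 299. Many of these genes are short or multicopy, and their counts hold shared reads. The strand of the reads is not given in the sources used here, so reads of an intronic gene and of its host cannot be told apart.

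Some genes known as markers of other cell types were found in oocytes. The 5 endothelial markers summed to 73.2 to 149 CPM in oocytes (median 102) and 0 to 40.3 CPM in cumulus cells (median 8.58). Most of the oocyte sum was Pecam1, an adhesion molecule (median 82.3 CPM), with Tek at 15.7 CPM, while Cdh5, which defines endothelium, had no count in any oocyte. The 6 leukocyte markers summed to medians of 12.6 and 7.28 CPM, with Csf1r at 10.9 CPM in oocytes and Ptprc at 0 counts. The 5 red blood cell markers summed to medians of 0.778 and 23.2 CPM, nearly all of it Alas2 (median 21.9 CPM in cumulus cells), an enzyme of heme synthesis, since the 4 globin genes had counts in 1 cumulus library. Segments of T cell receptor variable genes were also higher in oocytes, for 18 of 21 tested and none in cumulus cells.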
